A study of Mus musculus with 6 samples.

Results

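The genes described here are 10 genes of the neuronal cytoskeleton, chosen by name: the neurofilament genes Nefl, Nefm, Nefh and Ina, the microtubule-associated protein genes Map2, Map1a, Map1b and Map6, and the genes of the tubulin-binding protein Stmn2 and of the neuronal tubulin Tubb3. All 10 of 10 were among the 16703 genes that passed the filter on low expression made before deposit. Their RNA was measured by RNA-seq in hippocampi of 3 aged (20-month-old) and 3 young (3-month-old) C57BL/6 males (an inbred strain of laboratory mice), with 1 poly(A)-enriched library per mouse and no other treatment. The replicates of each age had been picked from an earlier qPCR assay by a criterion that is not given, so they may not be an unselected sample of mice of that age.

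Neurofilaments are the intermediate filaments of neurons. They fill the axon, and their amount is known to set its calibre. They are copolymers of the light, medium and heavy chains (Nefl, Nefm and Nefh) and, in the brain, of alpha-internexin (Ina). Microtubules run along both axons and dendrites, where proteins of the Map families bind and stabilise them.

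The level of a gene is given as CPM, its adjusted count scaled to the library total. The deposited values are adjusted counts from which 1 factor of unwanted variation had been removed, so their totals of 15238190 to 17548247 per library are not the sequencing depth, which is unknown. Aged replicates 2 and 3 were the closest pair of 1 age. Their variance was 0.552 times the Poisson variance that the adjusted counts would have if they were reads, against 1.41 to 2.98 times for the other pairs, and the noise of the true reads is unknown. The removed factor had its largest weights on aged replicates 2 and 3, at -0.524 and 0.747, against -0.253 to 0.173 for the other libraries. Its part in their closeness was not tested. These replicates come from separate mice and were kept as separate samples. The libraries also differed in genes of the choroid plexus, a tissue beside the hippocampus. The summed level of its 10 markers ranged from 328.1 to 2511.9 CPM in aged libraries, against 2735.1 to 2817.3 CPM in young libraries. Across all genes, 200 were higher in aged mice and 131 lower at an adjusted p under 0.05 (limma), of which 63 and 55 differed by at least 1.5-fold. No cytoskeleton gene of the 10 reached that size.

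Promoter sequence was at hand for 5 of the 10 genes, as RefSeq start sites on mouse build GRCm38.p6. The 250 bases before the start are shown for Map2, the gene that passed the test, for Map1a, whose aged and young libraries were also apart, and for Ina, the neurofilament gene among the 5. Capitals mark matches on either strand to GGGCGG (a GC box, the site that the factor Sp1 is known for) or CCAAT.
Map2, chr1:66175079-66175328, + strand: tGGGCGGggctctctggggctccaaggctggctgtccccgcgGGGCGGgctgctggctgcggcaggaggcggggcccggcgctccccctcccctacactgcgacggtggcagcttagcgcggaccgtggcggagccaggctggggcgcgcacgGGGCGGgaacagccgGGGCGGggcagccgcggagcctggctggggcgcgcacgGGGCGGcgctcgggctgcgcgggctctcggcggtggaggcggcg
Map1a, chr2:121289352-121289601, + strand: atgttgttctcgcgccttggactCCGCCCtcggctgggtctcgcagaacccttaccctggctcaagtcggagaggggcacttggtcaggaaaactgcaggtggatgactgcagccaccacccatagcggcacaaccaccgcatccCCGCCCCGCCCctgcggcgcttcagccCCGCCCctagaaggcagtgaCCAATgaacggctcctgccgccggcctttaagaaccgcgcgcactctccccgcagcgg
Ina, chr19:47014431-47014680, + strand: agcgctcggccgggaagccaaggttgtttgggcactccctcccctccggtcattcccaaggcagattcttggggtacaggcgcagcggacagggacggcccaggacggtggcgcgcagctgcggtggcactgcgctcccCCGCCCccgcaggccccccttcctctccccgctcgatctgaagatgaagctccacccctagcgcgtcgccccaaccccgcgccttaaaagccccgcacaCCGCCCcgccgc
The Map2 window held 5 GC boxes and was 81.2% G and C. The Map1a window held 4 GC boxes, a pair of which overlap by a single base, and 1 CCAAT box, at 66.0% G and C. The Ina window held 2 GC boxes and was 70.8% G and C. A stretch just after the Ina start was in none of its transcripts in the GENCODE M21 annotation, so that start is less certain. For Map2 and Map1a the stretch was found. Of all 32851 promoters of this length, 32.7% held a GC box, 33.8% a CCAAT box and 12.4% the TATA box (TATAAA). The windows of Map1b, whose libraries were apart too, and of Tubb3 are not shown. Map1b held 1 GC box and 1 TATA box, and its start is as uncertain as that of Ina. Tubb3 held 2 GC boxes and 1 CCAAT box. These are letter matches in a window, and binding was not measured.

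Map2 (ENSMUSG00000015222.19), which stabilises the microtubules of dendrites and is a standard marker of them, was lower in aged hippocampus. It had 865.7, 869.0 and 878.7 CPM in aged libraries, against 959.0, 1009.8 and 980.0 CPM in young libraries. All 3 aged libraries lay below all 3 young ones. The aged spread was the smaller one in these adjusted values, whose removed factor weighted aged replicates 2 and 3 most. The means were 871.1 ± 6.77 CPM in aged mice and 982.9 ± 25.5 CPM in young mice (SD, n = 3 each), so that Map2 fell by 11.4% (95% interval 6.3% to 16.1% lower), a log2 fold change of -0.17 ± 0.037 (SE, limma, adjusted p = 0.027). It was the only one of the 10 genes to pass, 1 of 10, where 0.784% of all genes were called lower and 1.2% higher. The direction was the same under each of 23 alternative settings, 17 planned and 6 chosen after seeing the data. The call was kept in 15 of them, those 6 included. It was lost with any 1 library left out while the removed factor stayed in the model (adjusted p = 0.056 to 0.13, limma), without a trend in the variance (0.39) and with choroid plexus content as a covariate (0.14). It was kept with any 1 library left out and age as the sole term (adjusted p = 0.0263 to 0.0499, limma), which are the 6 settings chosen after seeing the data.

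Map1a (ENSMUSG00000027254.14) encodes a microtubule-associated protein of mature neurons. It had 1449.3, 1486.7 and 1480.1 CPM in aged libraries, against 1534.6, 1601.9 and 1655.9 CPM in young libraries. Every aged library again lay below every young one. The difference of -7.8% (95% interval -13.0% to -2.3%) did not pass the test over all genes (limma, adjusted p = 0.16).

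Map1b (ENSMUSG00000052727.7), known for its role in growing axons, had 888.7, 878.4 and 885.2 CPM in aged libraries, against 917.8, 932.5 and 927.5 CPM in young libraries. The groups did not overlap, although the difference was small, at -4.5% (95% interval -9.4% to 0.7%, limma, adjusted p = 0.41). Map6 (ENSMUSG00000055407.15), the protein that keeps neuronal microtubules stable in the cold, had 102.0, 112.1 and 108.3 CPM in aged libraries, against 120.4, 117.7 and 116.0 CPM in young libraries. Here too the groups were apart, by -9.0% (95% interval -15.7% to -1.8%, limma, adjusted p = 0.22).

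Stmn2 (ENSMUSG00000027500.11) binds free tubulin and keeps microtubules of growing axons dynamic. It had 285.1, 284.9 and 279.4 CPM in aged libraries, against 308.2, 290.0 and 303.4 CPM in young libraries. The aged libraries lay lower without overlap, young replicate 2 being closest to them, and the difference was -5.8% (95% interval -11.4% to 0.3%, limma, adjusted p = 0.36). Tubb3 (ENSMUSG00000062380.5), a beta-tubulin made almost only by neurons in the brain, had 210.5, 216.7 and 206.8 CPM in aged libraries, against 235.5, 214.7 and 243.0 CPM in young libraries. Aged replicate 2 stood above young replicate 2, so the groups overlapped. The difference of -8.4% (95% interval -15.0% to -1.3%) did not pass (limma, adjusted p = 0.24). With young replicate 2 left out and no removed factor in the model, Tubb3 passed (log2 fold change -0.18, limma, adjusted p = 0.036), 1 setting of 23 and one chosen after seeing the data.

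**Figure D1:**
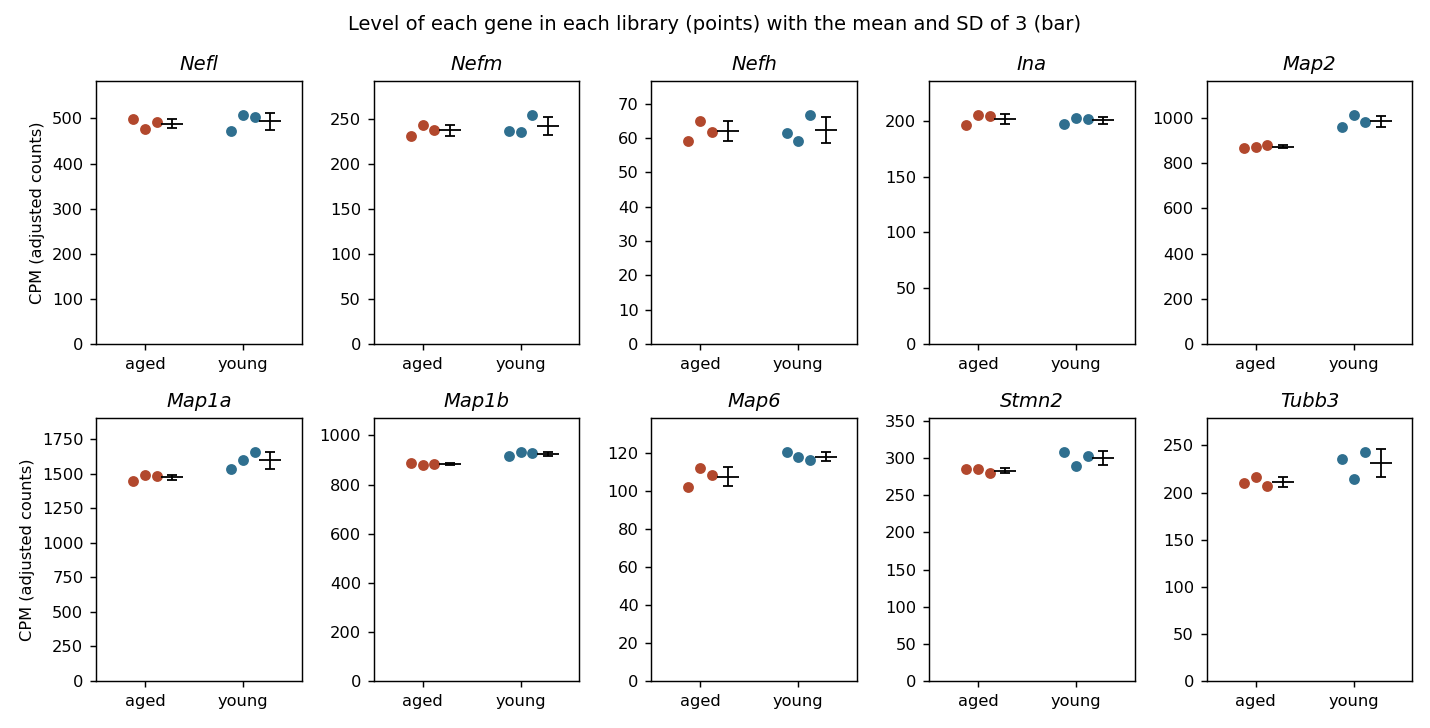
Level of each of the 10 genes in each library, in CPM of adjusted counts on axes from 0, with aged libraries (red) left of young ones (blue). Points are libraries in the order of their replicate numbers and bars are the mean and SD of 3. The red points lie below all blue ones for Map2, Map1a, Map1b, Map6 and Stmn2, and overlap them for the other genes.

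The 4 neurofilament genes showed no such separation. Nefl (ENSMUSG00000022055.8), the light chain on which assembly depends, had 497.6, 476.5 and 491.6 CPM in aged libraries, against 471.9, 506.6 and 502.1 CPM in young libraries. The lowest library of all was a young one. The means were 488.6 ± 10.9 CPM in aged mice and 493.5 ± 18.9 CPM in young mice (SD, n = 3 each), and the 95% interval of the difference ran from -6.9% to 5.3% (limma, adjusted p = 0.92).

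Nefm (ENSMUSG00000022054.12), the medium chain, had 230.9, 244.0 and 237.6 CPM in aged libraries, against 236.6, 236.3 and 254.3 CPM in young libraries, with an interval of -8.4% to 4.9% (limma, adjusted p = 0.82). Nefh (ENSMUSG00000020396.9), the heavy chain, had 59.2, 65.0 and 61.7 CPM in aged libraries, against 61.6, 59.1 and 66.6 CPM in young libraries. Its interval was the widest of the 4, from -9.7% to 9.2% (limma, adjusted p = 0.96). Ina (ENSMUSG00000034336.4) had 196.4, 204.7 and 203.7 CPM in aged libraries, against 196.9, 202.5 and 201.6 CPM in young libraries, with an interval of -5.6% to 7.3% (limma, adjusted p = 0.95). The aged and young libraries were interleaved for each of these genes, and the intervals leave room for changes of several percent either way.

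**Figure D2:**
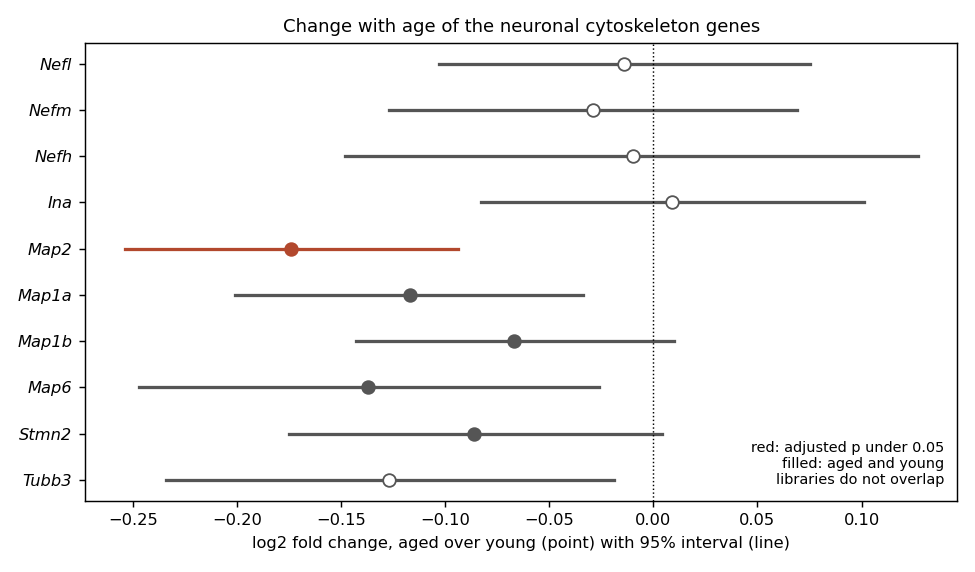
Fold change of each gene, aged over young, on the log2 scale (point) with its 95% interval from limma (line). Map2, in red, is the one gene with an adjusted p under 0.05, filled points mark the 5 genes whose aged and young libraries do not overlap, and the 4 neurofilament genes at the top lie near 0.

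Of the 10 genes, 9 had a negative fold change and 1, Ina, a positive one of 0.009. The median log2 fold change was -0.076, against 0.005 over all genes. The aged libraries lay below the young ones without overlap in 5 of 10 genes, against 12.7% of all genes, and above them in 0 of 10, against 14.5% of all genes. The 10 genes were measured in the same 6 libraries and are not independent of each other, so these counts carry no test.

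The proportions of the neurofilament chains were compared within each library, as differences in log2 CPM, which library size does not enter. Nefm minus Nefl averaged -1.04 ± 0.071 in aged libraries and -1.03 ± 0.065 in young libraries (SD, n = 3 each), a difference of -0.015 (exact permutation test, two-sided, p = 0.9). Nefh minus Nefl differed by 0.004 between the ages (p = 1.0, exact), Ina minus Nefl by 0.023 (p = 0.7, exact) and Nefh minus Nefm by 0.019 (p = 0.6, exact). The adjusted p was 1.0 for all 4 ratios, and 3 mice against 3 cannot give a p below 0.1. Aged and young libraries overlapped in all 4.

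**Figure D3:**
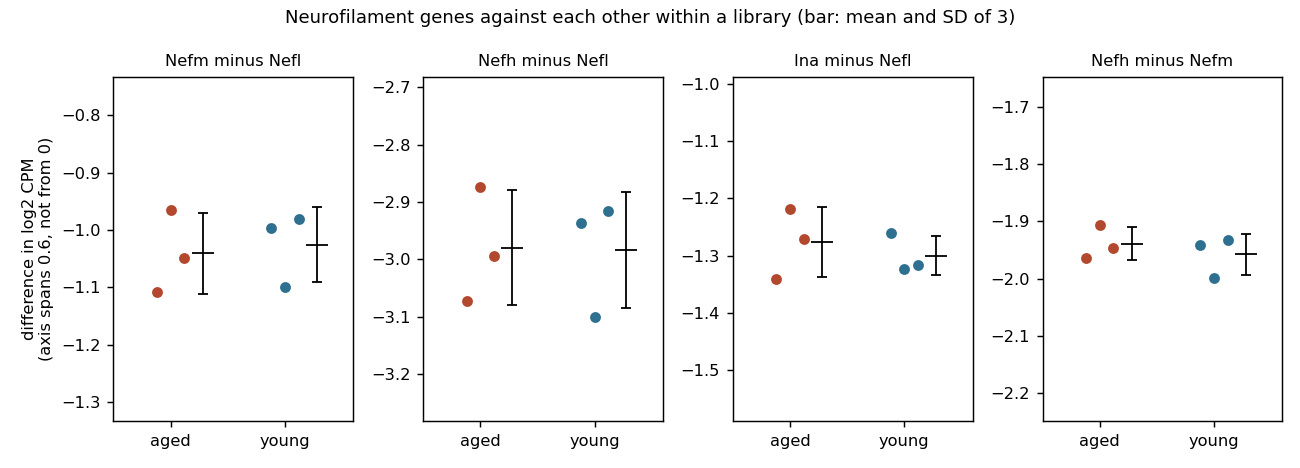
Difference in log2 CPM between a pair of neurofilament genes within each library, aged (red) left of young (blue), with the mean and SD of 3. Each axis spans 0.6 and does not start at 0. Aged and young libraries overlap in all 4 panels.

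Set against Nefl in the same way, Map2 stood at 0.799, 0.867 and 0.838 in aged libraries, against 1.023, 0.995 and 0.965 in young libraries. The pair was chosen after its values were seen and has no test. The ages were apart here, by -0.16, and for Map1a minus Nefl, by -0.10. For Map1b, Map6, Stmn2 and Tubb3 against Nefl the ages overlapped, with differences of -0.12 to -0.053.

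Levels of different genes were compared per kilobase of exon, from gene lengths of GENCODE M21. Nefl and Stmn2 stood highest, at 144.5 and 136.6 CPM per kb in aged mice and 146.0 and 145.0 CPM per kb in young mice. Map1a followed with 123.6 CPM per kb in aged and 134.1 in young mice, and Tubb3 with 113.1 in aged and 123.7 in young mice. From Nefl down to Tubb3 the library ranges of neighbours in this order overlapped. Map2 stood below them, apart from both its neighbours, at 80.5 CPM per kb in aged and 90.9 in young mice. Map1b had 62.0 CPM per kb in aged and 65.0 in young mice, and Ina 62.2 in aged and 61.8 in young mice, with overlapping ranges. Nefm had 41.1 CPM per kb in aged and 41.9 in young mice. Map6, at 17.6 in aged and 19.3 in young mice, and Nefh, at 15.5 in aged and 15.6 in young mice, were lowest. The lowest Map6 library and the highest Nefh library both stood at 16.7 CPM per kb. The lengths count every annotated exon of the protein-coding transcripts of a gene, so the order would shift where the hippocampus uses shorter isoforms.

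The wider neuronal cytoskeleton was described with lists chosen by function, which include the 10 genes. Of 29 microtubule-associated protein genes, Map2 alone was called, and it was lower in aged mice. The median log2 fold change of the list was -0.030, with 19 of 29 negative (48.6% of all genes) and 10 of 29 lower without overlap (12.7% of all genes). Map2, Map1a, Map1b and Map6 are among the 29, and each was negative and lower without overlap. Dcx, doublecortin of immature neurons, had 15.9, 13.7 and 14.8 CPM in aged libraries, against 18.6, 21.1 and 19.1 CPM in young libraries (log2 fold change -0.41, limma, adjusted p = 0.055). Map7, which recruits the motor kinesin-1 to microtubules, had a log2 fold change of 0.19 (limma, adjusted p = 0.11). Among 4 stathmins none was called by limma (0 also at an unadjusted p under 0.05, against 1337 higher and 1148 lower of all 16703 genes). Stmn1, the most widely expressed, was at 0.12 (limma, adjusted p = 0.41).

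The tubulins, which build the microtubule itself, held 3 called genes of 16, all lower in aged mice, against 0.784% of all genes called lower. That count moved by over 1.5 times in 14 of 23 settings. It was 1 with aged replicates 2 and 3 as 1 sample and 1 on leaving out any of aged replicates 1, 2 and 3 and young replicates 1 and 2, 0 without the trend and 0 with the choroid plexus covariate, and 5 with age as the sole term. Tubb2a, a major beta-tubulin of neurons, had 455.3, 446.8 and 462.5 CPM in aged libraries, against 540.2, 597.8 and 543.1 CPM in young libraries (log2 fold change -0.30 ± 0.045, SE, limma, adjusted p = 0.0026). Tuba1a, the main alpha-tubulin of developing neurons, had 368.8, 364.8 and 366.4 CPM in aged libraries, against 432.8, 424.2 and 398.5 CPM in young libraries (log2 fold change -0.19 ± 0.042, SE, limma, adjusted p = 0.032). Tuba1c was scarce, with 2.33, 2.06 and 2.0 CPM in aged libraries, against 5.31, 3.78 and 3.44 CPM in young libraries (log2 fold change -0.95 ± 0.23, SE, limma, adjusted p = 0.048). Of the 16 tubulins 13 had a negative fold change and 7 were lower without overlap (12.7% of all genes), with a median of -0.096. Tubulin genes have near-identical copies, and only uniquely mapped reads were counted, so the share of each copy is uncertain. Of 24 genes that modify or sever tubulin 1 was called (0.784% of all genes were called lower), Agtpbp1, a carboxypeptidase that shortens the glutamate side chains of tubulin, at 188.2, 184.0 and 187.0 CPM in aged libraries, against 206.4, 215.4 and 211.3 CPM in young libraries (log2 fold change -0.18 ± 0.043, SE, limma, adjusted p = 0.045). The list had 0 called genes in 12 of 23 settings, among them the replicate block, aged replicates 2 and 3 as 1 sample, and each library left out with the removed factor kept. The tubulin carboxypeptidases Vash2 and Vash1 were at -0.46 (limma, adjusted p = 0.36) and -0.23 (limma, adjusted p = 0.29).

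Among 8 other intermediate filament genes, 3 of them nuclear lamins that neurons make too, 2 were called higher in aged mice and 0 lower, against 1.2% and 0.784% of all genes. Only 1 was called higher when aged replicate 2, aged replicate 3 or young replicate 1 was left out. Gfap, the filament of astrocytes, had 691.5, 674.6 and 703.1 CPM in aged libraries, against 466.0, 509.5 and 503.7 CPM in young libraries (log2 fold change 0.49 ± 0.043, SE, limma, adjusted p = 3.4e-05). Vim, the vimentin of glia and vessels, had 63.4, 64.5 and 65.7 CPM in aged libraries, against 52.4, 53.4 and 49.4 CPM in young libraries (log2 fold change 0.32 ± 0.060, SE, limma, adjusted p = 0.012). The median of the 8 was 0.26. The scarce Sync was at 0.50 (limma, adjusted p = 0.63). None of 5 neuronal intermediate filament genes was called by limma (0 at an unadjusted p under 0.05, against 1337 higher and 1148 lower of all 16703 genes). The fifth was Prph, peripherin of peripheral neurons, at 1.06 to 1.26 CPM in aged and 1.03 to 2.16 CPM in young libraries.

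No gene was called among 24 axonal motors, 17 genes of the spectrin and ankyrin skeleton or 27 of the actin cytoskeleton, whose medians were 0.003, -0.003 and 0.041. At an unadjusted p under 0.05 (limma), 1 motor gene was higher and 1 lower, 2 membrane skeleton genes were higher and 3 lower, and 3 actin cytoskeleton genes were higher and 1 lower. Of all 16703 genes, 1337 were higher and 1148 lower at that threshold. The motor Kif5a, a kinesin-1 heavy chain that carries cargo along axons, had 2864.0, 2999.1 and 2899.2 CPM in aged libraries, against 2500.6, 2425.3 and 2795.6 CPM in young libraries (log2 fold change 0.19, limma, adjusted p = 0.067). Kif3a, a kinesin-2 motor, was at -0.18 (limma, adjusted p = 0.10). Epb41 and Ank1, of the membrane skeleton, were at 0.19 and 0.18 (limma, adjusted p = 0.26 and 0.23). The actin-capping Tmod1 was at 0.27 (limma, adjusted p = 0.073), and Dbn1, drebrin of dendritic spines, at -0.15 (limma, adjusted p = 0.13).

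**Figure D4:**
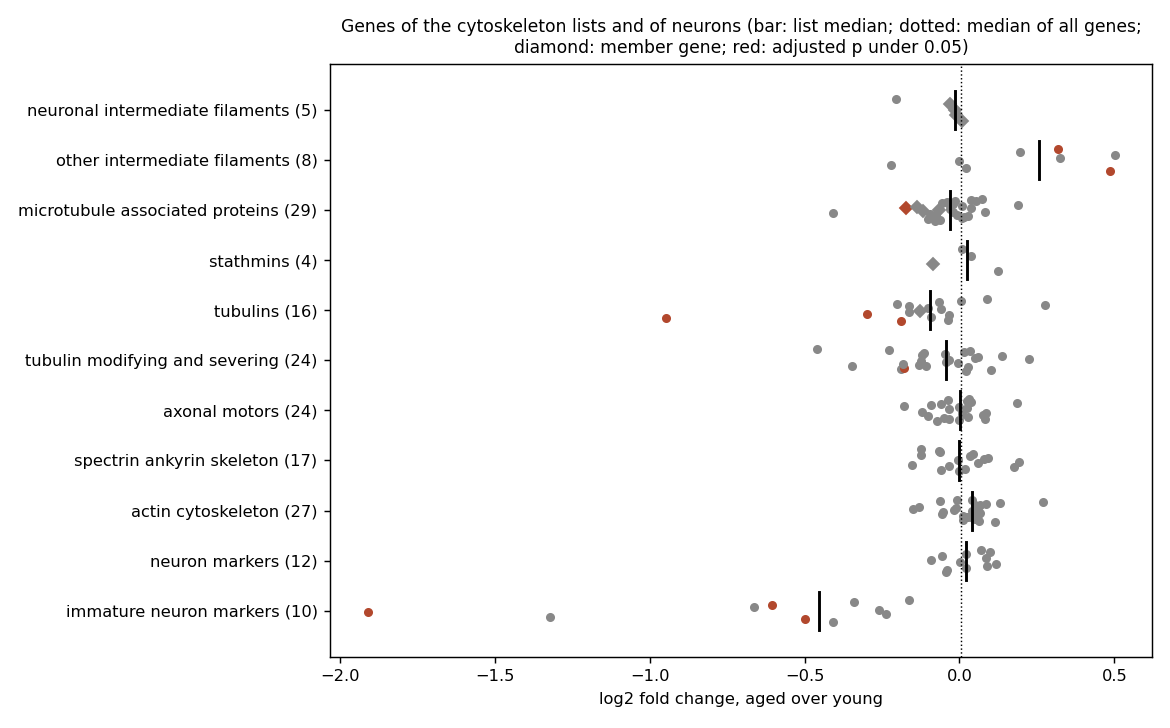
Log2 fold change, aged over young, of each gene in the cytoskeleton lists and in 2 lists of neuron markers, with the number of genes in brackets. Short bars are list medians, the dotted line is the median of all genes (0.005), diamonds are genes of the 10, and red marks an adjusted p under 0.05. The red points lie to the left for tubulins, Agtpbp1 of the tubulin modifying and severing genes, Map2 and immature neuron markers. They lie to the right for other intermediate filaments.

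None of 12 general neuron markers was called by limma (2 higher and 1 lower at an unadjusted p under 0.05, against 1337 and 1148 of all 16703 genes). The summed level of the 12 markers was 10071.6 to 10119.3 CPM in aged libraries, against 9919.6 to 9976.2 CPM in young libraries. With the mean of these markers subtracted in each library, the log2 fold change of Map2 was -0.20 (limma, adjusted p = 0.018). In RNA of whole tissue, fewer cells of a type and less RNA per cell cannot be told apart. The 10 markers of immature neurons were all negative (48.6% of all genes), with 3 called lower (0.784% of all genes). The called ones were Dpysl3 (log2 fold change -0.50, limma, adjusted p = 0.00037), Sox11 (-0.61, limma, adjusted p = 0.0043) and Igfbpl1 (-1.91, limma, adjusted p = 0.034). Igfbpl1 was scarce and spread widely among aged libraries, at 0.565, 3.14 and 1.59 CPM, against 5.44, 4.57 and 6.04 CPM in young libraries. The sum of the 10 markers was 276.1 to 281.1 CPM in aged libraries, against 339.8 to 349.4 CPM in young libraries. The list shares Tubb2b with the tubulins and Dcx with the microtubule-associated proteins, and Tubb2b alone gave 156.3 to 159.6 CPM in aged and 173.4 to 183.5 CPM in young libraries. The other 8 markers summed to 104.1 to 106.7 CPM in aged libraries, against 144.8 to 148.3 CPM in young libraries. Just 1 immature neuron marker was called when aged replicate 3 was left out, and 6 with age as the sole term. The part of immature neurons in the levels of Map2, Stmn2, Tubb3 and the tubulins was not tested.

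Some markers of other cells differed with age as well, and their part in these levels was not tested. For the counts below, 1.2% of all genes were called higher and 0.784% lower. Microglia markers were called higher in 7 of 10, with sums of 598.7 to 623.1 CPM in aged and 449.1 to 462.9 CPM in young libraries, and in 4 when aged replicate 3 was left out. Astrocyte markers were called higher in 2 of 10 (Gfap and S100b), with sums of 5246.1 to 5307.8 CPM in aged and 4775.5 to 5121.7 CPM in young libraries. Of these 10 markers 6 had a positive log2 fold change and 4 a negative one (48.6% of all genes were negative), with a median of 0.037. The 10 oligodendrocyte markers were likewise mixed, 6 positive and 4 negative, with a median of 0.027. Oligodendrocyte markers were called higher in 1 of 10 (Mobp), with sums of 6564.6 to 7638.5 CPM in aged and 6202.7 to 6763.6 CPM in young libraries. That count was 0 when aged replicate 1 or young replicate 1 was left out, 2 without young replicate 2, and 3 with the replicate block or without aged replicate 2. Choroid plexus markers were called lower in 8 of 10, a count that moved by over 1.5 times in 11 of 23 settings. It was 0 with robust shrinkage and 0 when aged replicate 3 was left out, 1 without young replicate 1 and 5 without aged replicate 2. The choroid plexus markers were lowest in aged replicates 2 and 3. Of 8 endothelial markers 0 were called by limma (2 higher and 0 lower at an unadjusted p under 0.05, against 1337 and 1148 of all 16703 genes). No marker in these lists was at 0 in either age.

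Over the 23 settings, 6 of the 10 genes were negative in every one. Their log2 fold changes ranged from -0.23 to -0.15 for Map2, -0.15 to -0.090 for Map1a, -0.089 to -0.058 for Map1b, -0.24 to -0.096 for Map6, -0.11 to -0.018 for Stmn2 and -0.19 to -0.019 for Tubb3. Stmn2 and Tubb3 came nearest to 0, at -0.018 and -0.019, without aged replicate 3, where the removed factor correlates with age at -0.75. Without that factor as a term the same 5 libraries gave -0.076 and -0.11. Nefl ranged from -0.047 to 0.018, Nefm from -0.075 to 0.006, Nefh from -0.083 to 0.037 and Ina from -0.043 to 0.029.

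**Figure D5:**
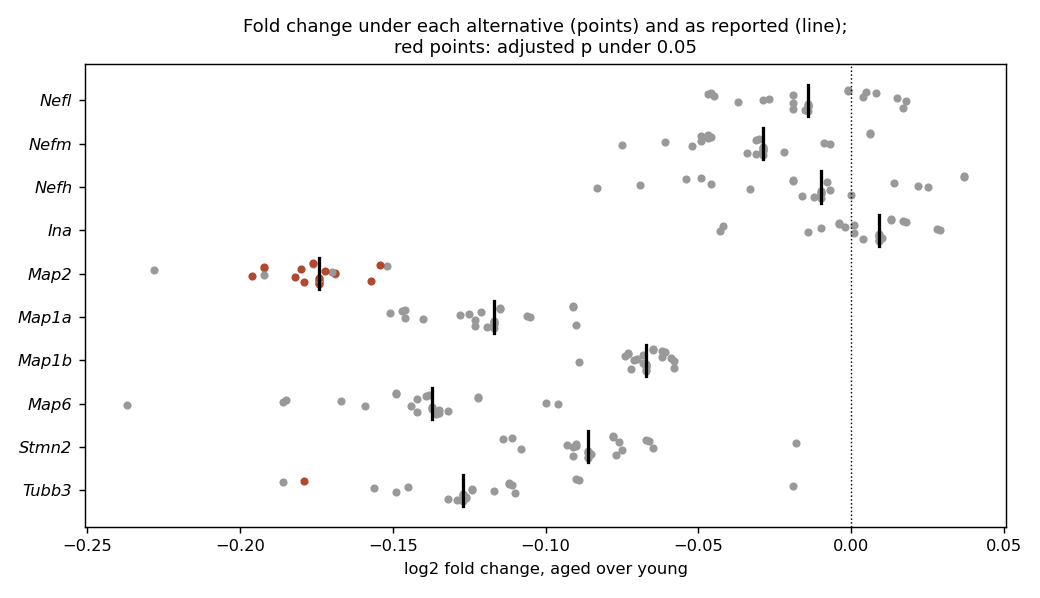
Log2 fold change of each gene, aged over young, under 23 alternative settings (points) and as reported (bar), with red where the adjusted p was under 0.05. The points of the 4 neurofilament genes fall on both sides of 0 (dotted line), and those of the other 6 genes stay left of it.

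The genes whose log2 CPM followed Map2 most closely over the 6 libraries were Arid1b, Trp53bp1, Rmnd1 and Gpr173 (Pearson r 0.9977 to 0.9981 among 11012 genes searched), and 209 genes had an r above 0.95. Nefl was followed most closely by Il16, Limk2, Polrmt and Pfn4 (r 0.9895 to 0.9983, 31 genes above 0.95). For Nefh they were Psrc1, Abat, Kdelr1 and Ttyh3 (r 0.9951 to 0.9978, 84 genes above 0.95). For Stmn2 they were Slc4a2, Ocln, Eif4g2 and Slc49a4 (r 0.994 to 0.9986, 102 genes above 0.95). These r values rest on 6 libraries with 1 factor removed, and how often r comes this high without any link was not tested. They are given as a description only.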

How the data were processed

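RNA-seq libraries of 3 aged and 3 young hippocampi were compared, with groups taken from the sample labels. The authors deposited log2 CPM values per library and gene, together with an average log2 CPM, a log2 fold change, a likelihood ratio statistic (a score with no fixed range), a p-value and an FDR. The authors' own p-value, score and fold change columns were not used. The submitters' notes name Trim Galore 0.6.6, STAR 2.7.8a, edgeR 3.32.1, R 4.05 and build mm39, whereas the methods also name removal of unwanted variation. The log was undone, a base value subtracted and the result divided by the smallest step among the lowest values of its library. The values were then whole to within 6e-09. In the log2 values, 1 direction among the 6 libraries was missing (singular value 0.0645, the next 2.16, over 1735 genes with a mean log2 CPM above 7).

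Because these are adjusted values, no count test was run. The log2 CPM of all 16703 genes were fitted with limma 3.58.1 (R 4.3.3, trended variance, two-sided), and the model held age and the missing direction (degrees of freedom 3 residual, 12.3 prior). Benjamini-Hochberg adjustment ran over all genes, with a threshold of 0.05. The direction was estimated from the same libraries, its removal narrows the spread among mice, and p-values may be too small. CPM are the log2 values undone. Ratios were compared with exact permutation tests (scipy 1.17.1). Besides the 10 genes, the genes named were drawn from these: in each list the called genes (at most 6 of smallest p) and the 2 largest changes among genes averaging 1 CPM or more, and the 4 genes most like a gene in pattern among those averaging 8 CPM or more. The genes, lists and tests, the missing direction as a term included, were chosen with earlier results of these data known. Alternatives were other scalings, pseudocounts, filters, variance models and covariates and each library left out. Gene lengths (GENCODE M21, GRCm38) matched 10 of 10 genes and come from another build than the values.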

Additional observations from a re-analysis of the deposited data

How the results depend on the processing

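Of 230 values of the 10 genes (23 settings each, 17 planned and 6 chosen after seeing the data), 200 kept their direction and their side of the threshold and 21 changed sign, all 21 among the neurofilament genes. Over all genes, 200 higher and 131 lower became 319 and 204 with age as the sole term, 0 and 0 without the variance trend, and 0 and 1 with the choroid plexus covariate, which correlates with age at -0.795. With neuron markers subtracted 130 were higher. Past 1.5-fold, 63 higher and 55 lower became 0 and 0 without the trend and 0 and 1 with the choroid plexus covariate, and 36 were lower with robust shrinkage. Of the 10 genes, the 1 called lower became 0 without the trend and 0 with the choroid plexus covariate. In the cytoskeleton lists, 2 higher and 5 lower became 0 and 0 under both of these settings, 8 were lower with age as the sole term, and 2 were lower with aged replicates 2 and 3 as 1 sample. The causes were not tested.

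Leaving out 1 library gave 58 to 184 genes higher and 22 to 116 lower, 27 to 73 higher and 10 to 57 lower past 1.5-fold, 0 to 0 of the 10 genes lower, and 1 to 3 higher and 1 to 3 lower in the cytoskeleton lists. With age as the sole term besides, Map2 was called in 6 of 6 such fits, which were chosen after seeing the data. The numbers higher were then 125, 99 and 113 when aged replicate 1, aged replicate 3 or young replicate 1 was left out, and those lower 61 and 51 when aged replicate 3 or young replicate 1 was left out. Past 1.5-fold, 38 and 97 were higher when aged replicate 3 or young replicate 2 was left out, and 36, 26, 10 and 30 were lower without aged replicates 2 and 3 and young replicates 1 and 3. Without young replicate 2, 2 of the 10 genes were lower. In the lists, 6 were higher without young replicate 3, and 2 were lower without aged replicate 2 and 2 without aged replicate 3.

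The log2 fold change of Nefl was 0.017 with quantile normalization, 0.018 with the choroid plexus covariate and -0.047 to 0.015 with 1 library left out. Nefm was at -0.061 to 0.006 with 1 library left out. Nefh was at 0.000 with quantile normalization and -0.069 to 0.037 with 1 library left out. Ina was at -0.014 with neuron markers subtracted, -0.043 with the choroid plexus covariate and -0.042 to 0.029 with 1 library left out. With age as the sole term, Nefl turned to 0.004 and 0.005 when aged replicate 2 or young replicate 2 was left out, Nefm to 0.006 without young replicate 3, Nefh to 0.022 and 0.037 when aged replicate 1 or young replicate 3 was left out, and Ina to -0.002 and -0.004 when aged replicate 2 or young replicate 1 was left out. With 1 library left out, Nefm minus Nefl differed between the ages by -0.053 to 0.018, Nefh minus Nefl by -0.054 to 0.050, Ina minus Nefl by -0.006 to 0.055 and Nefh minus Nefm by -0.002 to 0.031.

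As deviations from the mean of their age group, same-numbered aged and young samples correlated at 0.195, -0.318 and -0.458 (6393 genes). The removed factor ties the deviations of the libraries to each other, so these correlations cannot show whether the numbers pair the samples. Aged replicate 3 correlated best with young replicate 2 (0.837) and aged replicate 2 with young replicate 3 (0.308), and just aged replicate 1 correlated best with its own number. With the replicate number as a block, 226 genes were higher and 164 lower, and Map2 was at -0.17 (limma, adjusted p = 0.029), the 1 gene of the 10 called. Depth is unknown, so the counting error of scarce genes such as Tuba1c could not be given.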
